A study of Mus musculus with 12 samples.

Results

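The comparison of MI+CIH hearts with CIH hearts asks which transcripts differ after infarction when every heart compared also had intermittent hypoxia. Its members are the 3 libraries whose group label is MI+CIH and the 3 whose label is CIH, 6 of the 12 libraries of the series, described across all genes. The other 6 libraries, 3 labelled MI and 3 labelled sham, give the infarction contrast without hypoxia. All are total RNA of hearts from C57BL/6J mice, and both groups compared carry the CIH exposure. An effect of CIH drops out of the comparison only where it is the same with and without infarction. The labels leave the abbreviations unexplained. In this field MI stands for myocardial infarction and CIH for chronic intermittent hypoxia, a rodent exposure to cycles of low oxygen used to model sleep-disordered breathing. Age, sex, cycle depth, duration, the time after infarction, the part of the heart taken and any processing batch are not given in the sources used here. The group label CIH, unlike sham, names no operation. If those mice had none, surgery and infarction cannot be told apart in this comparison. The labels also do not say that replicates came from separate animals, so the p-values measure only the spread between these libraries.

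After a coronary artery is blocked, dead heart muscle is replaced by a scar that fibroblasts build from fibrillar collagens, fibronectin, matricellular proteins and cross-linking enzymes, while macrophages clear debris. Surviving muscle is known for a stress programme in which natriuretic peptides rise, and for a loss of mitochondrial, calcium-handling and ion channel transcripts. Adult heart muscle draws most of its energy from fatty acids, under control of the PGC-1, PPAR and estrogen-related receptor transcription factors.

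The values are FPKM, fragments per kilobase of transcript scaled to library size, as deposited by the authors. Library totals, read back from the smallest steps of the FPKM values, were 26.06 to 33.42 M reads over the 12 libraries. All 6 libraries looked like heart: Myh6, the adult myosin heavy chain, stood at 4390, 4070 and 1210 FPKM in MI+CIH libraries 1, 2 and 3, against 4820, 4260 and 5370 FPKM in CIH libraries 1, 2 and 3. On the first principal component of the 6 libraries, which held 52.1% of their variance, MI+CIH libraries lay at 42.1, 26.2 and 66.7, against -43.5, -40.0 and -51.4 for CIH. MI+CIH 3 lay farthest out there, and CIH 1 stood apart on the second (15.5%), so counts are also given below without these libraries. Reads of the mitochondrial genome made up 12.46%, 7.18% and 5.10% of recovered reads in MI+CIH libraries, against 12.62%, 6.38% and 5.28% in CIH libraries, so the first library of each group was the highest. Rpph1, the RNA of ribonuclease P, made up 2.92%, 5.01% and 5.06% of summed FPKM in MI+CIH libraries, against 5.10%, 9.26% and 8.08% in CIH libraries; the part of such differences in the results was not tested.

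MI+CIH hearts differed from CIH hearts over a broad part of the transcriptome. Matrix, complement, macrophage and antibody genes were higher in MI+CIH hearts, and genes of oxidative phosphorylation, fatty acid oxidation, the citric acid cycle, calcium cycling and ion channels were lower. Of 15503 genes tested, 4368 (28.2%) passed an adjusted p of 0.05 in limma, 3088 rising (19.9%) and 1280 falling (8.26%). A change of 2-fold or more was seen for 1249 of the risers and 318 of the fallers, or 911 and 598 under median-of-ratios scaling. All 3 MI+CIH libraries lay above all 3 CIH libraries for 4233 genes (27.3%), and below them for 1604 genes (10.3%). The median gene was higher by 0.20 (log2) in MI+CIH hearts, and median-of-ratios scaling brought this to 0.03. Under that scaling 1990 genes rose (12.8%) and 2241 fell (14.5%), so the share of calls that rose was 47.0% rather than 70.7%. No gene was called in opposite directions by the 2 scalings, and 3270 kept their call and direction. Without each of the 6 libraries in turn, 2275 genes kept theirs throughout, 1642 risers and 633 fallers.

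**Figure D1:**
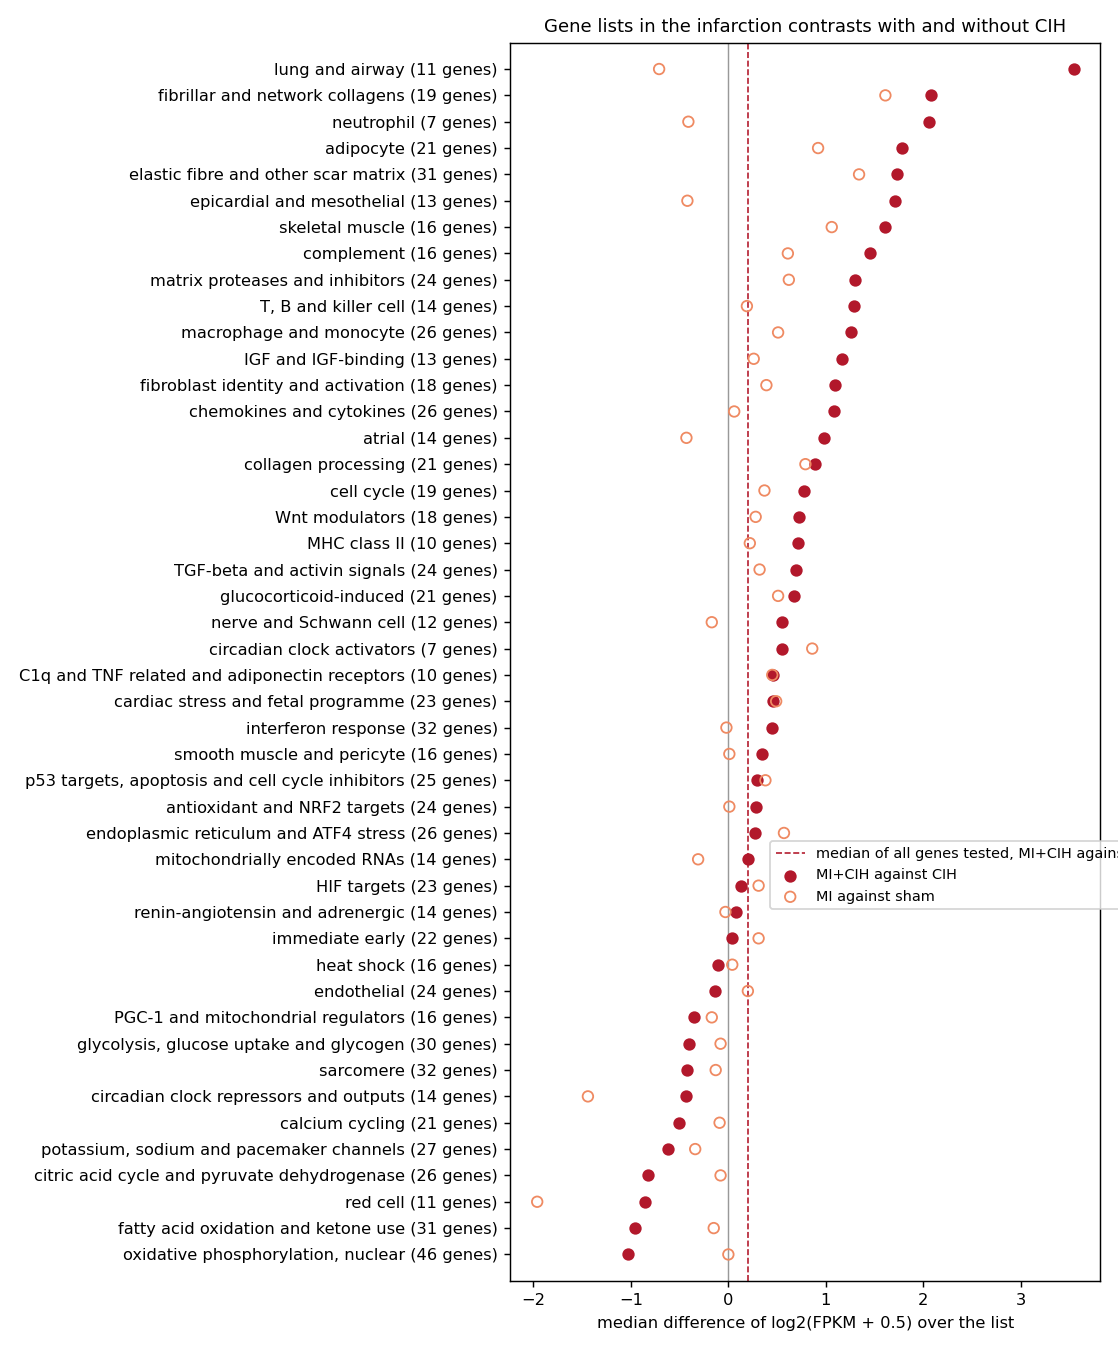
Median difference of log2(FPKM + 0.5) over each gene list, for MI+CIH against CIH (filled) and MI against sham (open), with the median of all genes for MI+CIH against CIH at 0.20 (dashed). Nuclear oxidative phosphorylation genes sit at -1.03 for MI+CIH against CIH and at 0.00 for MI against sham, while collagens sit at 2.08 and 1.61.

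Genes of tissues around the heart muscle also differed, and their part in the results below was not tested. Of 11 lung and airway markers tested, 9 rose and 1 (Hopx, also a heart muscle gene) fell, with a list median of 3.54. The summed level of that list was 379, 3730 and 1510 FPKM in MI+CIH libraries, against 69.2, 92.5 and 75.1 FPKM in CIH libraries. Scgb1a1, the club cell secretoglobin of the airway lining, stood at 290, 2980 and 990 FPKM in MI+CIH libraries, against 0.448, 12.6 and 1.20 FPKM in CIH libraries. All 3 MI+CIH libraries were thus higher, MI+CIH 2 most (log2 difference 8.42 ± 1.90 SE, adjusted p = 0.00971). Sftpc, the surfactant protein of alveolar cells, stood at 216 FPKM in MI+CIH 2, but at 0.0477 and 0.311 FPKM in MI+CIH 1 and 3 and at 0.177, 0.00 and 0.0375 FPKM in CIH libraries. The ciliated-cell factor Foxj1 rose by 3.14 (adjusted p = 0.00307) and the mucin Muc5b by 3.54 (adjusted p = 0.00259). Epicardial and mesothelial markers rose for 11 of 13 tested (median 1.71), among them Krt18 (3.08), Upk1b (2.19) and Msln (2.14). Without CIH 1 and MI+CIH 3 together, the airway count was 4 and the epicardial count 5.

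Adipocyte genes rose for 13 of 21 tested, with none falling (median 1.78). Cfd, the fat-cell serine protease adipsin, stood at 551, 795 and 383 FPKM in MI+CIH libraries, against 7.79, 32.3 and 24.1 FPKM in CIH libraries. The groups did not overlap (4.87 ± 0.80, adjusted p = 0.00282). Cidec, a lipid-droplet protein, rose by 4.23, Retn (resistin) by 4.03 and the gluconeogenic enzyme Pck1 by 4.29. The brown-fat uncoupler Ucp1 did not pass (0.446, 7.72 and 1.31 FPKM in MI+CIH libraries, against 0.00, 0.0549 and 0.111 FPKM in CIH libraries), and the fatty acid carrier Fabp4 differed by 0.04 (adjusted p = 0.913). Atrial markers, with a median of 0.98, rose for 3 of 14 (Nppa, Dkk3 and Nr2f2), a share near the 19.9% of all tested genes. Their summed level, most of it Nppa, was 4660, 4510 and 5440 FPKM in MI+CIH libraries, against 422, 2400 and 724 FPKM in CIH libraries. The atrial light chain Myl7, at 416, 1040 and 357 FPKM in MI+CIH libraries, against 84.5, 552 and 156 FPKM in CIH libraries, did not pass. Without CIH 2, which had the highest atrial sum of the CIH libraries, the atrial count was 6. Skeletal muscle markers rose for 4 of 16 and fell for 2 (Ckm and Cacna1s), shares not far from those of all tested genes (19.9% and 8.26%). The list median was 1.61. All 3 MI+CIH libraries lay above all 3 CIH libraries for 10 of the 16 and below them for 2. Of all tested genes 27.3% and 10.3% did so. The fast troponin Tnnt3 stood at 7.54, 27.2 and 21.1 FPKM in MI+CIH libraries, against 0.427, 0.208 and 0.495 FPKM in CIH libraries. The rising count there was 1 without CIH 1, without CIH 3 or without MI+CIH 2, and 2 without CIH 2. In bulk tissue, fewer cells of a type and less RNA per cell cannot be told apart, which holds for every group of genes below.

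**Figure D2:**
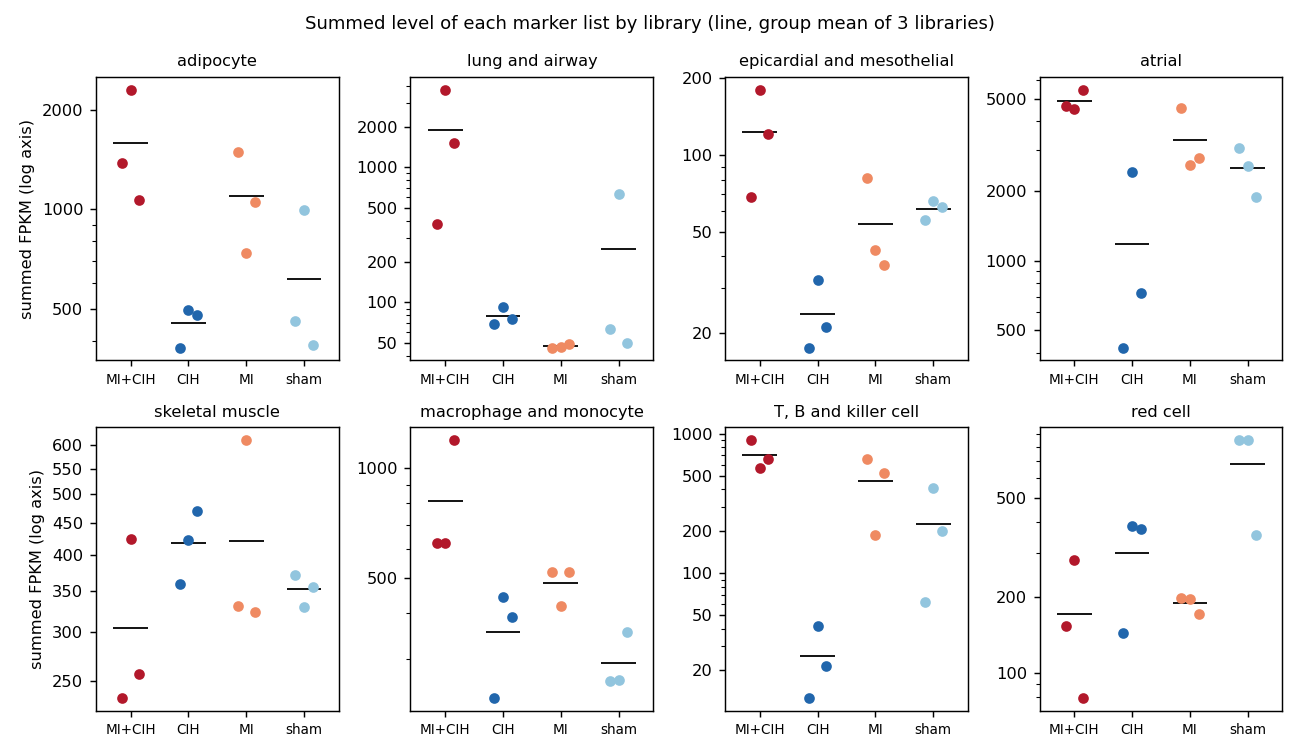
Summed FPKM (log axis) of 8 marker lists in each library of MI+CIH, CIH, MI and sham, with group means as lines. Lung and airway markers sum to 379, 3730 and 1510 FPKM in MI+CIH libraries, against 69.2 to 92.5 FPKM in CIH libraries, and 1 sham library stands at 633 FPKM.

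Scar matrix genes rose together. Of 19 fibrillar and network collagens tested, 17 rose and none fell (median 2.08), and of 31 elastic-fibre and other scar matrix genes 29 rose and none fell (median 1.73). Col1a1, the main chain of fibrillar type I collagen, stood at 284, 133 and 513 FPKM in MI+CIH libraries, against 22.8, 44.3 and 45.6 FPKM in CIH libraries. The lowest MI+CIH library was above the highest CIH library (2.89 ± 0.48, adjusted p = 0.00286). Col14a1, a fibril-associated collagen, stood at 51.2, 35.5 and 48.4 FPKM in MI+CIH libraries, against 4.16, 10.1 and 7.38 FPKM in CIH libraries (2.62 ± 0.27, adjusted p = 0.000915), and Col3a1 rose by 2.72. The MI+CIH libraries were close to each other for Col14a1 and differed more for Col1a1.

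Proteins that organise the scar followed the collagens. Elastin (Eln) stood at 149, 61.8 and 77.3 FPKM in MI+CIH libraries, against 9.45, 14.6 and 14.2 FPKM in CIH libraries (2.78 ± 0.29, adjusted p = 0.000925). Fibronectin (Fn1), the early scaffold of a wound, stood at 173, 72.6 and 398 FPKM in MI+CIH libraries, against 11.1, 19.2 and 13.4 FPKM in CIH libraries (3.54 ± 0.48, adjusted p = 0.00182). Every MI+CIH library exceeded every CIH library for both, and MI+CIH 2 was the lowest of its group. Tnc (tenascin C), a matricellular protein of injured tissue, stood at 5.63, 4.18 and 7.39 FPKM in MI+CIH libraries, against 0.416, 0.670 and 0.435 FPKM in CIH libraries (2.61 ± 0.27, adjusted p = 0.000925). Spp1 (osteopontin), a matricellular protein made by macrophages in infarcts, stood at 144, 7.53 and 120 FPKM in MI+CIH libraries, against 0.280, 0.781 and 0.659 FPKM in CIH libraries. MI+CIH 2 was far below its group-mates but still above every CIH library (5.63 ± 0.89, adjusted p = 0.0026). Of the other matrix genes, Ltbp2 rose by 3.80, Comp by 3.64, Cilp by 3.37 and Postn (periostin) by 2.71. Under median-of-ratios scaling 15 of the 19 collagens and 28 of the 31 other matrix genes rose, and without CIH 1 and MI+CIH 3 together 14 and 25 did.

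**Figure D3:**
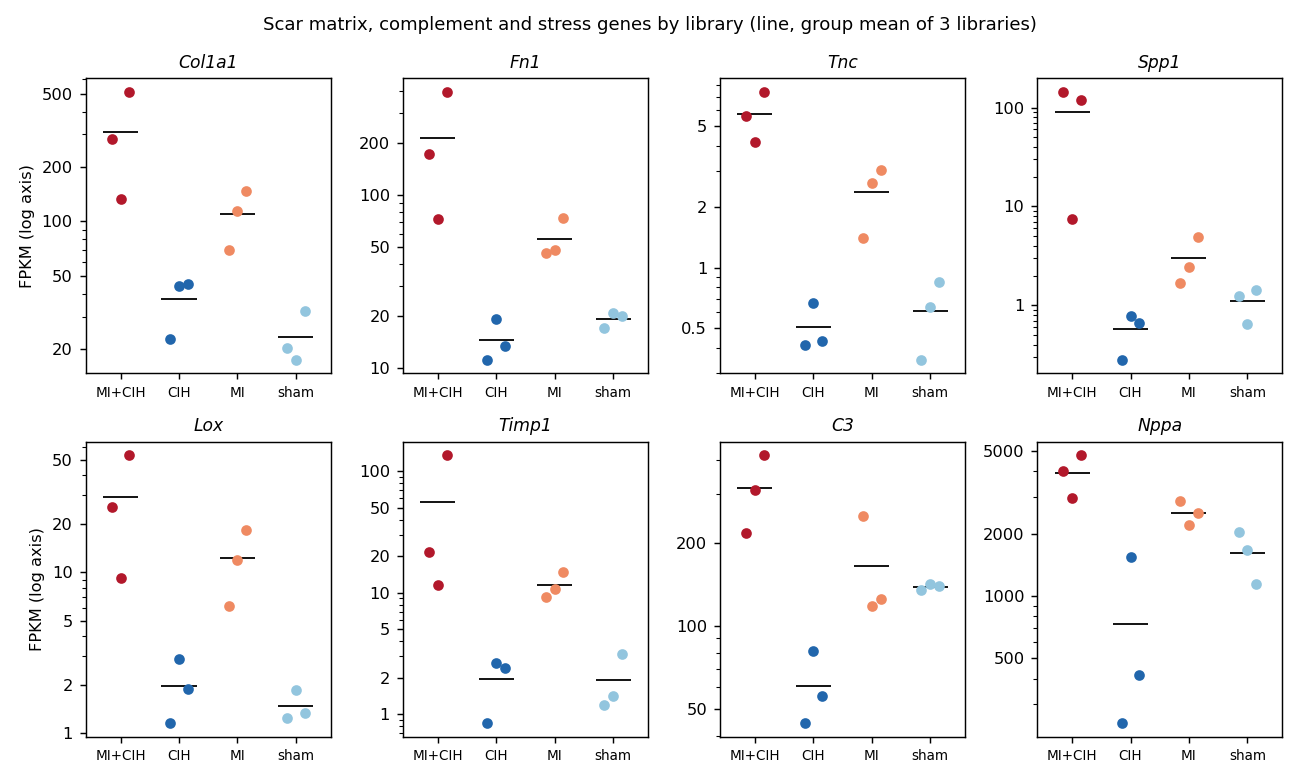
FPKM (log axis) of 8 genes in each library of MI+CIH, CIH, MI and sham, with group means as lines. Fn1 stands at 72.6 to 398 FPKM in MI+CIH libraries, above every CIH and sham library, and Spp1 stands at 7.53 FPKM in MI+CIH 2 against 144 and 120 FPKM in MI+CIH 1 and 3.

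The promoter of Col1a2, the partner chain of Col1a1, is shown because the collagens moved together. Of the 17 collagens that rose, 13 had a RefSeq promoter window (250 bases before to 50 after the start), and 6 of those (46.2%) held the letters CCAAT on either strand, the box bound by NF-Y, against 41.1% of all 27025 genes with a window. Below are the 250 bases before the Col1a2 start on the plus strand of GRCm38.p6 (chr6:4505368-4505617), 5′ to 3′, with CCAAT in capitals, its first base 109 bases before the start.
Col1a2: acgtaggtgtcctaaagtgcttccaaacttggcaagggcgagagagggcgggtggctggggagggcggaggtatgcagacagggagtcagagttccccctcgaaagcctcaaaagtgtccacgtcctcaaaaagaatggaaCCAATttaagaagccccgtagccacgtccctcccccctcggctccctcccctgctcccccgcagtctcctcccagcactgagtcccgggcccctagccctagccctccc
Col1a2 itself stood at 121, 69.9 and 183 FPKM in MI+CIH libraries, against 10.8, 25.3 and 27.7 FPKM in CIH libraries (2.53 ± 0.41, adjusted p = 0.0026).

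Enzymes that process, cross-link and cut matrix rose as well. Collagen processing genes rose for 15 of 21 (median 0.89), and for 9 without CIH 1 and MI+CIH 3 together. Lox (lysyl oxidase), which cross-links collagen and elastin, stood at 25.3, 9.23 and 53.4 FPKM in MI+CIH libraries, against 1.15, 2.89 and 1.88 FPKM in CIH libraries (3.33 ± 0.56, adjusted p = 0.00307). The collagen propeptidases Adamts2 (1.84) and Bmp1 (1.20) and the lysyl oxidase Loxl3 (2.43) rose too. Proteases and their inhibitors rose for 16 of 24 (median 1.30), and under median-of-ratios scaling 15 rose and 1 fell. Timp1, a metalloproteinase inhibitor, stood at 21.6, 11.6 and 136 FPKM in MI+CIH libraries, against 0.840, 2.66 and 2.38 FPKM in CIH libraries (3.85 ± 0.73, adjusted p = 0.0051). Mmp9, a gelatinase of neutrophils and macrophages, stood at 83.5 FPKM in MI+CIH 3 but at 0.791 and 1.03 FPKM in MI+CIH 1 and 2, against 0.311 to 0.905 FPKM in CIH libraries, and did not pass (adjusted p = 0.185).

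TGF-beta and activin signalling genes rose for 12 of 24 (median 0.69); under median-of-ratios scaling 9 rose and 1 fell. The ligands Tgfb3 (1.56) and Tgfb2 (1.0) and the activin inhibitors Fst (2.05) and Fstl3 (1.56) were among them. Fibroblast genes rose for 12 of 18 (median 1.09). Runx1, a transcription factor of activated fibroblasts, stood at 3.92, 2.45 and 6.24 FPKM in MI+CIH libraries, against 0.820, 0.767 and 0.520 FPKM in CIH libraries (1.90 ± 0.27, adjusted p = 0.00176). The surface protein Thy1 rose by 1.24. Only 7 fibroblast genes passed without CIH 1, and 6 without CIH 1 and MI+CIH 3 together. Insulin-like growth factor genes rose for 8 of 13, among them Igf1 (1.15) and the binding protein Igfbp7 (1.71), and for 4 without CIH 1 or without CIH 3. Wnt modulators rose for 8 of 18 (median 0.72), the secreted inhibitors Sfrp2 (3.15) and Sfrp1 (2.23) and the agonist Rspo1 (2.11) included; under median-of-ratios scaling 2 others fell.

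The cardiac stress programme gave counts near those of all tested genes, or below them. Of 23 genes tested, 5 rose and 1 fell (median 0.46), beside 19.9% and 8.26% of all tested genes. Under median-of-ratios scaling 4 rose and 4 fell, beside 12.8% and 14.5% of all tested genes. Before that scaling the faller was the chaperone Cryab (-0.68, adjusted p = 0.0288). The falling count was then 3 without CIH 1 or without MI+CIH 2 and 0 without CIH 2, CIH 3 or MI+CIH 3. Nppa, the atrial natriuretic peptide, stood at 4000, 2990 and 4790 FPKM in MI+CIH libraries, against 243, 1550 and 414 FPKM in CIH libraries. CIH 2 was high among the CIH hearts, as it was for the atrial markers above, but below every MI+CIH library (2.84 ± 0.54, adjusted p = 0.0043). Ankrd1, a stretch-responsive titin partner, stood at 2170, 1240 and 1720 FPKM in MI+CIH libraries, against 633, 837 and 764 FPKM in CIH libraries (1.17 ± 0.25, adjusted p = 0.00676). The fetal myosin Myh7 did not pass, at 355, 138 and 2350 FPKM in MI+CIH libraries, against 297, 300 and 132 FPKM in CIH libraries: MI+CIH 3 alone was high. The ventricular peptide Nppb did not pass either (0.45 ± 0.39, adjusted p = 0.408).

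Sarcomere genes fell for 12 of 32 and rose for 1 (median -0.42). Myl3, the essential light chain of ventricular myosin, stood at 470, 849 and 413 FPKM in MI+CIH libraries, against 1570, 1760 and 1720 FPKM in CIH libraries. The CIH libraries lay close together and far above the others (-1.62 ± 0.26, adjusted p = 0.00238). Troponin C (Tnnc1) fell by 1.32, the regulatory light chain Myl2 by 0.97 and myosin-binding protein C (Mybpc3) by 0.77, whereas Tnnt2, cardiac troponin T, differed by -0.14 (adjusted p = 0.657). Nebulin (Neb), chiefly a skeletal muscle protein, was the gene that rose (1.59). Myoglobin (Mb), the oxygen store of muscle, stood at 7350, 11500 and 4790 FPKM in MI+CIH libraries, against 12000, 16500 and 18600 FPKM in CIH libraries (-1.06 ± 0.32, adjusted p = 0.0288), and its highest adjusted p without a library was 0.093.

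Calcium cycling genes fell for 8 of 21 and rose for 1 (median -0.51). Atp2a2, the pump SERCA2a that returns calcium to its store, stood at 596, 756 and 432 FPKM in MI+CIH libraries, against 1350, 1250 and 1540 FPKM in CIH libraries (-1.24 ± 0.21, adjusted p = 0.00275). Its inhibitor phospholamban (Pln) stood at 278, 538 and 359 FPKM in MI+CIH libraries, against 932, 883 and 887 FPKM in CIH libraries (-1.25 ± 0.24, adjusted p = 0.00487). Pump and inhibitor thus fell by a similar amount, with no overlap between groups. The release channel Ryr2 fell by 0.82 and Jph2, which holds the calcium-release junction together, by 1.08. The count of calcium genes that fell was 5 without CIH 3 or without MI+CIH 1.

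Ion channel genes fell for 14 of 27 and none rose (median -0.62). Kcnip2, the accessory subunit of the transient outward potassium current, stood at 6.29, 13.8 and 9.49 FPKM in MI+CIH libraries, against 33.4, 33.4 and 30.1 FPKM in CIH libraries (-1.73 ± 0.23, adjusted p = 0.00154). Its pore-forming partner Kcnd2 fell by 1.04. Scn4b, a sodium channel beta subunit, stood at 1.39, 2.11 and 0.659 FPKM in MI+CIH libraries, against 6.28, 5.33 and 7.79 FPKM in CIH libraries (-1.95 ± 0.26, adjusted p = 0.00155). Kcnj2, a subunit of the inward rectifier that sets the resting potential, fell by 1.17. No library of one group reached the other for these 4 genes. Without CIH 1 and MI+CIH 3 together the channel count was 8. Among renin-angiotensin and adrenergic genes, 4 of 14 rose and 5 fell, beside 19.9% and 8.26% of all tested genes. Agt (angiotensinogen, 1.90) and Ace (1.43) rose, while the receptors Agtr1a (-0.90) and Adrb1 (-1.32) fell. The falling count was 3 without CIH 3 or without MI+CIH 1.

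Genes of energy metabolism fell together. Of 46 nuclear-encoded genes of oxidative phosphorylation, 40 fell and none rose (median -1.03), 42 under median-of-ratios scaling and 12 with only the 2 groups compared in the fit. Fatty acid oxidation and ketone-use genes fell for 23 of 31 with none rising (median -0.96), and citric acid cycle and pyruvate dehydrogenase genes for 22 of 26 with 2 rising (median -0.82). The summed level of the 46 genes was 6040, 10100 and 6070 FPKM in MI+CIH libraries, against 12400, 15300 and 16500 FPKM in CIH libraries. MI+CIH 2 was the highest of its group and CIH 1 the lowest of its own. The same sum was 10000, 10200 and 10500 FPKM in MI libraries, against 12000, 10100 and 10600 FPKM in sham libraries, and no gene of the list passed in either direction there. By this sum the CIH libraries were the highest of the 12, above every sham library. MI+CIH 2 lay within the range of the MI libraries, and MI+CIH 1 and 3 were the lowest of all. The difference of CIH from sham was not tested here.

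By respiratory complex, Ndufs1 of complex I stood at 24.4, 38.2 and 24.2 FPKM in MI+CIH libraries, against 54.2, 61.7 and 67.7 FPKM in CIH libraries (-1.10 ± 0.18, adjusted p = 0.00251). Uqcrfs1, the iron-sulfur subunit of complex III, stood at 68.7, 128 and 75.3 FPKM in MI+CIH libraries, against 182, 282 and 289 FPKM in CIH libraries (-1.49 ± 0.26, adjusted p = 0.00315). Cox8b, a muscle subunit of complex IV, stood at 42.5, 93.8 and 59.0 FPKM in MI+CIH libraries, against 224, 272 and 186 FPKM in CIH libraries (-1.86 ± 0.28, adjusted p = 0.002). Cox7a1, another muscle form of that complex, fell by 1.73, Sdhc of complex II by 1.09 and Atp5a1 of the ATP synthase by 1.12. The 6 members that did not pass were Ndufb9, Ndufs3, Uqcrc1, Cox5b, Atp5h and Atp5j, all with negative differences (-0.73 to -0.18). Ndufs3 and Uqcrc1 were listed at 3.02 FPKM or less in every library, far below other subunits, so their values may not measure the whole gene. RNAs made from the mitochondrial genome itself did not follow: 1 of 14 fell (mt-Co3, -1.13) and the list median was 0.20, or -0.01 under median-of-ratios scaling; without CIH 1, 3 members rose. The complex I transcript mt-Nd1 stood at 12900, 7330 and 5270 FPKM in MI+CIH libraries, against 10600, 6820 and 4580 FPKM in CIH libraries (adjusted p = 0.737). In the same libraries mt-Co3 was listed at only 11.5 to 38.4 FPKM, so its value may not measure the whole gene.

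**Figure D4:**
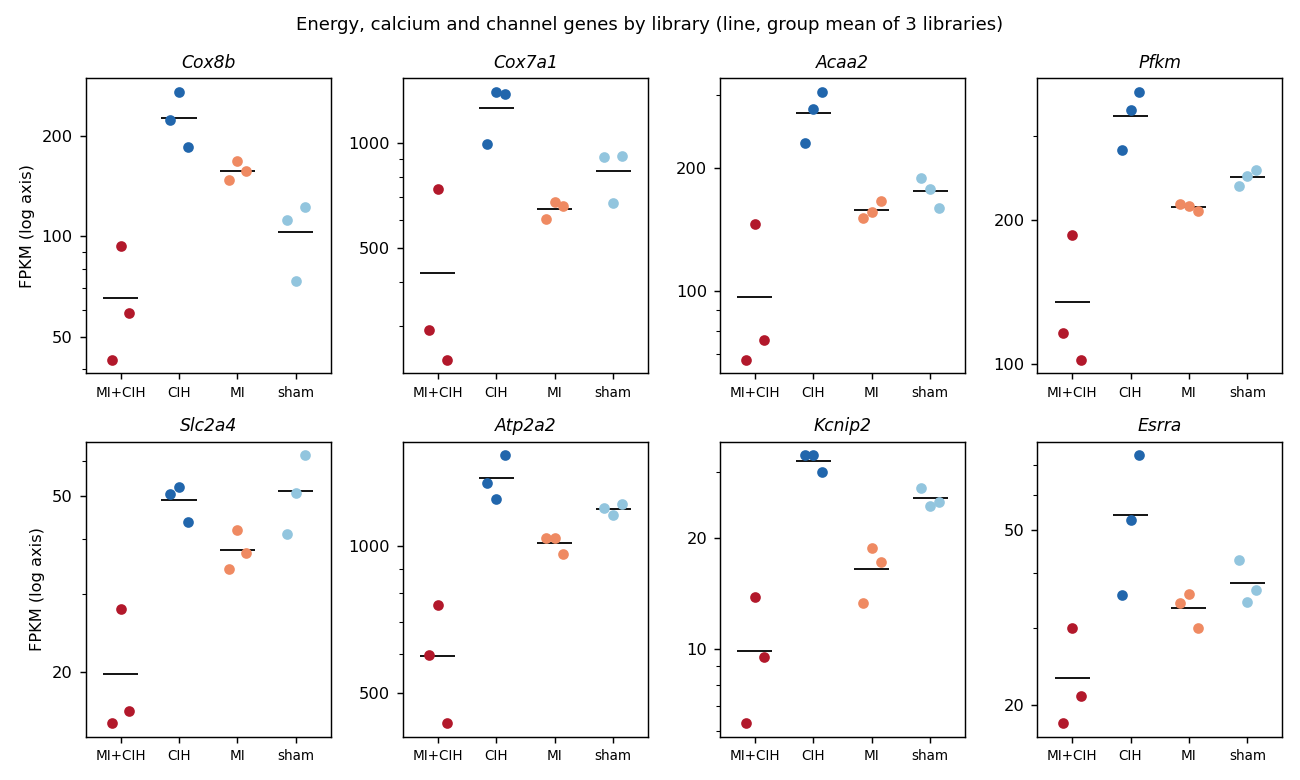
FPKM (log axis) of 8 energy, calcium and channel genes in each library of MI+CIH, CIH, MI and sham, with group means as lines. Cox8b stands at 42.5, 93.8 and 59.0 FPKM in MI+CIH libraries, against 224, 272 and 186 FPKM in CIH libraries, and Atp2a2 at 432 to 756 FPKM in MI+CIH libraries, against 1250 to 1540 FPKM in CIH libraries.

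In fatty acid oxidation, Acaa2, the mitochondrial thiolase, stood at 67.8, 146 and 75.7 FPKM in MI+CIH libraries, against 229, 278 and 306 FPKM in CIH libraries (-1.56 ± 0.25, adjusted p = 0.00246). The very-long-chain dehydrogenase Acadvl fell by 1.17, the trifunctional protein subunit Hadhb by 1.25 and the isomerase Eci1 by 1.49. The muscle carnitine palmitoyltransferase Cpt1b was read at a low level in every library, 0.705, 0.836 and 0.572 FPKM in MI+CIH libraries, against 1.51, 0.728 and 0.859 FPKM in CIH libraries, and did not pass; values this low may not measure the whole gene. Citrate synthase (Cs) stood at 59.2, 92.8 and 59.1 FPKM in MI+CIH libraries, against 146, 155 and 168 FPKM in CIH libraries (-1.18 ± 0.18, adjusted p = 0.002). The risers of that list were Pdk3 (1.27), a kinase that inhibits pyruvate dehydrogenase, and the anaplerotic pyruvate carboxylase Pcx (1.20); Pdk4 did not pass (adjusted p = 0.872).

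Glucose-handling genes fell for 13 of 30 and rose for 2 (median -0.40). Slc2a4, the insulin-responsive glucose transporter GLUT4, stood at 15.3, 27.7 and 16.3 FPKM in MI+CIH libraries, against 50.6, 52.4 and 43.7 FPKM in CIH libraries (-1.33 ± 0.22, adjusted p = 0.00265). Pfkm, the muscle phosphofructokinase, fell by 1.33 and hexokinase 2 (Hk2) by 0.95. Pfkfb3, whose product activates phosphofructokinase, went the other way, at 11.6, 15.4 and 17.3 FPKM in MI+CIH libraries, against 2.81, 3.00 and 3.57 FPKM in CIH libraries (2.06 ± 0.21, adjusted p = 0.000915). The falling count was 5 without MI+CIH 1 and 6 without CIH 2, CIH 3 or MI+CIH 3, and the rising count 2 to 4 without any 1 library.

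Regulators of this programme fell in part: 6 of 16 fell and 1 rose (median -0.35), and 3 fell without CIH 1 and MI+CIH 3 together. Esrra, the estrogen-related receptor alpha, stood at 18.2, 29.9 and 21.0 FPKM in MI+CIH libraries, against 35.5, 52.6 and 73.8 FPKM in CIH libraries (-1.18 ± 0.25, adjusted p = 0.00661). Perm1, a muscle factor that acts with PGC-1 and these receptors, stood at 28.4, 33.6 and 17.3 FPKM in MI+CIH libraries, against 64.7, 64.3 and 54.7 FPKM in CIH libraries (-1.24 ± 0.22, adjusted p = 0.00307). Ppara fell by 0.82, whereas the coactivator Ppargc1a stood at 16.6, 17.6 and 14.4 FPKM in MI+CIH libraries, against 23.1, 17.2 and 17.2 FPKM in CIH libraries, and did not pass (adjusted p = 0.36).

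Estrogen-related receptors are known to bind AAGGTCA. Of 91 genes of the oxidative phosphorylation, fatty acid, citric acid cycle and regulator lists that fell, 73 had a promoter window, and 5 of them (6.85%) held these letters on either strand: Acadm, Ogdh, Perm1, Rxrg and Sdhd. Of all 27025 genes with a window, 5.38% did. A match describes letters and shows no binding. The 250 bases before the starts of Perm1 (plus strand, chr4:156215677-156215926) and Acadm, the medium-chain acyl-CoA dehydrogenase (minus strand, chr3:153944644-153944893), are given from GRCm38.p6 because both genes fell and both hold the match; capitals mark it, read here as its reverse complement, 202 and 249 bases before the start.
Perm1: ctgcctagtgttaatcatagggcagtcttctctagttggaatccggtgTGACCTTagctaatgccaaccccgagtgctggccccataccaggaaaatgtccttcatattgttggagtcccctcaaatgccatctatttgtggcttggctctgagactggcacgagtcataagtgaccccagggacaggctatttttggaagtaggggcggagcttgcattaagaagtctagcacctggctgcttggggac
Acadm: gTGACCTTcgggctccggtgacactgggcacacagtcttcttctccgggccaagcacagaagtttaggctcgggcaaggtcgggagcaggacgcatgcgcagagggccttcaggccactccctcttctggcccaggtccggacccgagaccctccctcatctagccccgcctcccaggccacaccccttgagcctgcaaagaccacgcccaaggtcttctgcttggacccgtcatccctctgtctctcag
Acadm stood at 117, 209 and 117 FPKM in MI+CIH libraries, against 254, 321 and 469 FPKM in CIH libraries (-1.24 ± 0.26, adjusted p = 0.00664).

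Complement, macrophage and antibody genes were higher in MI+CIH hearts. Complement genes rose for 15 of 16 (median 1.45), and for 9 without MI+CIH 3. C3, the central complement component, stood at 217, 311 and 415 FPKM in MI+CIH libraries, against 44.3, 81.1 and 55.9 FPKM in CIH libraries (2.36 ± 0.32, adjusted p = 0.00159). C1s1, a protease of the classical pathway, stood at 30.7, 33.8 and 40.3 FPKM in MI+CIH libraries, against 9.47, 12.1 and 8.93 FPKM in CIH libraries (1.74 ± 0.16, adjusted p = 0.000502). The groups were far apart for both, and C4b (3.04) and the inhibitor Serping1 (1.53) rose too.

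Macrophage and monocyte genes rose for 22 of 26 with none falling (median 1.26), and for 11 without CIH 1 and MI+CIH 3 together. Gpnmb, a glycoprotein of lipid-laden macrophages, stood at 26.2, 4.85 and 10.5 FPKM in MI+CIH libraries, against 0.475, 0.822 and 0.759 FPKM in CIH libraries (3.31 ± 0.44, adjusted p = 0.0016). The lectin Lgals3 (3.15), the lipid receptor Trem2 (1.97), the integrin Itgax (1.8) and the recruitment receptor Ccr2 (1.18) rose. The lysosomal protease Ctsk, shared with fibroblasts and osteoclasts, stood at 12.5, 12.5 and 137 FPKM in MI+CIH libraries, against 2.09, 3.48 and 2.31 FPKM in CIH libraries, so MI+CIH 3 was far above its group (3.22 ± 0.77, adjusted p = 0.0125). Neutrophil genes rose for 2 of 7 (Ltf and Lcn2, both also made by airway epithelium), beside 19.9% of all tested genes, and for 6 without MI+CIH 2. Their median was 2.06, or 0.87 without MI+CIH 3. The neutrophil protein S100a9 stood at 8.38, 0.608 and 92.6 FPKM in MI+CIH libraries, against 1.23, 2.81 and 1.73 FPKM in CIH libraries, and did not pass (adjusted p = 0.235).

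Lymphocyte and antibody genes rose for 10 of 14 (median 1.29). Igkc, the kappa light chain constant region, stood at 667, 458 and 486 FPKM in MI+CIH libraries, against 4.68, 23.2 and 14.1 FPKM in CIH libraries (5.45 ± 0.74, adjusted p = 0.00178). In MI libraries it stood at 501, 134 and 382 FPKM, against 47.4, 311 and 160 FPKM in sham libraries, so the CIH libraries were the lowest of the 12. Ighm rose by 4.31 and Jchain, which joins secreted antibodies, by 3.30. Chemokine and cytokine genes rose for 11 of 26 (median 1.08), among them the B-cell attractant Cxcl13 (4.10) and the oncostatin M receptor Osmr (1.26), and for 7 without CIH 1 and MI+CIH 3 together. MHC class II genes rose for 4 of 10 (H2-Oa, H2-DMb2, H2-DMb1 and Ciita), 2 of them under median-of-ratios scaling and 2 without any 1 of CIH 1, CIH 3, MI+CIH 1 and MI+CIH 3. These 4 were low, averaging 4.57 FPKM or less in MI+CIH libraries. The summed level of the list overlapped between groups, at 819, 784 and 471 FPKM in MI+CIH libraries, against 236, 558 and 565 FPKM in CIH libraries. Interferon-response genes rose for 6 of 32 (median 0.45), a share no higher than the 19.9% of all tested genes that rose; Zbp1 (1.61), Mx1 (1.27) and Oasl2 (1.20) were among them.

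Proliferation, hormone and stress lists gave smaller counts. Cell cycle genes rose for 9 of 19 (median 0.78), with Mki67 at 10.9, 4.27 and 13.1 FPKM in MI+CIH libraries, against 2.17, 1.91 and 0.902 FPKM in CIH libraries (2.12 ± 0.35, adjusted p = 0.00273). Glucocorticoid-induced genes rose for 7 of 21 (median 0.67), beside 19.9% of all tested genes. Fkbp5, a co-chaperone of the glucocorticoid receptor, stood at 31.7, 22.4 and 51.4 FPKM in MI+CIH libraries, against 5.03, 3.51 and 7.97 FPKM in CIH libraries (2.56 ± 0.33, adjusted p = 0.00155). Zbtb16 rose by 1.8. MI+CIH 3 was the highest library for Mki67 and Fkbp5, and no library overlapped the other group.

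Antioxidant genes rose for 9 of 24 and fell for 3, beside 19.9% and 8.26% of all tested genes. Without CIH 1 and MI+CIH 3 together, 5 rose and 1 fell. Under median-of-ratios scaling 7 rose and 4 fell, beside 12.8% and 14.5% of all tested genes. The extracellular dismutase Sod3 rose (1.63) and the mitochondrial one, Sod2, fell (-1.04). Hmox1, the haem-degrading enzyme, stood at 19.1, 16.2 and 202 FPKM in MI+CIH libraries, against 7.75, 6.36 and 9.70 FPKM in CIH libraries (2.28 ± 0.73, adjusted p = 0.0397; the highest without a library was 0.101). Genes of p53, apoptosis and cell cycle arrest rose for 7 of 25 and fell for 1, beside 19.9% and 8.26% of all tested genes, with Cdkn1a (p21) at 1.02 and Gadd45g at 2.0. The rising count there was 3 without CIH 3 and 4 without MI+CIH 3. Endoplasmic reticulum and ATF4 stress genes rose for 5 of 26 and fell for 2, shares near those of all tested genes (19.9% and 8.26%), or 5 and 4 under median-of-ratios scaling, the falling count being 0 to 2 without any 1 library. Among the risers were Asns (1.24), Sesn2 (1.17) and Ddit3 (0.64), all targets of the stress factor ATF4.

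The counts of this paragraph stand beside shares of 19.9% rising and 8.26% falling over all tested genes. Targets of the hypoxia-inducible factors rose for 3 of 23 and fell for 3, not far from those shares (median 0.13, or -0.08 under median-of-ratios scaling). Ndrg1 (0.75) was among the risers, and Egln1 (-0.82), the prolyl hydroxylase that marks the factor for decay, fell with Pdk1 (-0.80) and Higd1a (-0.80). The rising count was 1 without CIH 2, CIH 3 or MI+CIH 3. Heat shock genes fell for 2 of 16 (Hspb8 and Hspd1), and the list's falling count was 1 to 4 without any 1 library. Immediate early genes rose for 2 of 22 (Nr4a3 and Myc) and fell for 1 (Klf2), with a median of 0.04, or -0.16 under median-of-ratios scaling. Endothelial genes rose for 2 of 24 (Lyve1 and Plvap) and fell for 4, among them the VEGF receptor Kdr (-0.90). That falling count was 1 without CIH 2 or MI+CIH 3, 2 without CIH 3 or MI+CIH 1, and 6 under median-of-ratios scaling. Smooth muscle and pericyte genes rose for 6 of 16 and fell for 3, the fallers including the pericyte potassium channel pair Kcnj8 (-0.76) and Abcc9 (-0.92). Nerve and Schwann cell genes rose for 4 of 12, with the myelin gene Mbp at 1.24, and for 1 without CIH 1 and MI+CIH 3 together. Red cell genes fell for 1 of 11 (Hba-a2, -1.73). None of 4 Y-linked and X-inactivation genes passed.

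Clock genes were spread within the CIH group. None of 7 activators passed, though 3 did without CIH 2, and 2 of 14 repressors and outputs fell (3 under median-of-ratios scaling, 7 without CIH 2, and none without any 1 of CIH 1, CIH 3, MI+CIH 1 and MI+CIH 3). Of all tested genes 8.26% fell. Arntl, the core activator BMAL1, stood at 5.21, 5.17 and 5.54 FPKM in MI+CIH libraries, against 2.42, 6.26 and 1.14 FPKM in CIH libraries (adjusted p = 0.113). Dbp, an output factor that peaks opposite to it, stood at 12.5, 17.8 and 12.7 FPKM in MI+CIH libraries, against 27.5, 7.77 and 73.3 FPKM in CIH libraries (adjusted p = 0.33). CIH 2 had the highest Arntl and the lowest Dbp of its group, CIH 3 the reverse, and the MI+CIH libraries lay close together; the hour of sampling is not given in the sources used here. Usp2 (-0.91, adjusted p = 0.0257) and Hlf (-0.63, adjusted p = 0.0468) fell, with overlap between the groups. Their promoter windows held neither the E-box CACGTG nor the D-box TTATGTAA or TTACGTAA on either strand, which 8.09% and 1.23% of all genes with a window held.

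The C1q and TNF related family holds C1qtnf9 (CTRP9), a secreted relative of adiponectin known as heart-protective in mice. C1qtnf9 stood at 36.6, 48.5 and 29.9 FPKM in MI+CIH libraries, against 39.3, 64.3 and 62.8 FPKM in CIH libraries. The groups overlapped and the difference did not pass (-0.52 ± 0.22, adjusted p = 0.0937), while under median-of-ratios scaling it did (-0.73, adjusted p = 0.0346). Of 10 family members and receptors tested, 5 rose and none fell, or 4 rose and 2 fell under median-of-ratios scaling. Of all tested genes 19.9% rose and 8.26% fell, or 12.8% and 14.5% under that scaling. C1qtnf6 (1.73), C1qtnf3 (1.78), C1qtnf7 (0.98), C1qtnf1 (0.69) and the receptor Adipor2 (0.61) were the risers, and 2 rose without MI+CIH 3, 3 rose without CIH 3, and 2 fell without CIH 1. Adiponectin (Adipoq), a fat-cell hormone, stood at 41.2, 70.1 and 44.5 FPKM in MI+CIH libraries, against 0.824, 3.79 and 2.53 FPKM in CIH libraries (4.30 ± 0.68, adjusted p = 0.0026), and it is one of the 13 adipocyte genes above that rose. Adipor1 (-0.35, adjusted p = 0.184) and the T-cadherin receptor Cdh13 (-0.05, adjusted p = 0.816) did not pass; Adipor1 did under median-of-ratios scaling (-0.56, adjusted p = 0.0239).

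Genes with the smallest p included several outside the groups above. Fndc1, a fibronectin type III domain protein, stood at 14.7, 10.6 and 11.6 FPKM in MI+CIH libraries, against 2.98, 3.03 and 2.84 FPKM in CIH libraries (1.88 ± 0.13, adjusted p = 0.00023). Myof (myoferlin), a membrane-repair protein, stood at 15.6, 14 and 22.6 FPKM in MI+CIH libraries, against 3.41, 4.17 and 3.85 FPKM in CIH libraries (2.03 ± 0.18, adjusted p = 0.000502). Both groups were tight for these genes. Thbs3 (1.41), the scaffold Iqgap1 (1.20), the annexin Anxa8 (3.39) and the macrophage protein Cd5l (2.94) also rose. Among fallers, Cpeb3, a translation regulator, stood at 5.69, 5.06 and 5.22 FPKM in MI+CIH libraries, against 15.6, 11.5 and 15.6 FPKM in CIH libraries (-1.32 ± 0.14, adjusted p = 0.000915). Rragd, a nutrient-sensing GTPase of the mTORC1 pathway, stood at 10.7, 12.1 and 12.8 FPKM in MI+CIH libraries, against 26.1, 25.4 and 25.1 FPKM in CIH libraries (-1.08 ± 0.12, adjusted p = 0.000925). The leucine-pathway dehydrogenase Ivd (-1.25), the ubiquitin ligase subunit Asb14 (-1.50) and the purine receptor P2ry1 (-1.55) fell as well. Gpx3, a secreted glutathione peroxidase, and Apoe were among the most abundant risers: Gpx3 stood at 551, 645 and 1320 FPKM in MI+CIH libraries, against 156, 314 and 255 FPKM in CIH libraries (1.74 ± 0.39, adjusted p = 0.00867).

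Some of the calls named above rest on single libraries. The adjusted p was 0.05 or more without MI+CIH 3 for Mb (0.0841), H2-DMb1 (0.0816), Ciita (0.0853), Cdkn1a (0.0585), Ndrg1 (0.059), Hspd1 (0.0813), Plvap (0.0687), Kdr (0.0591), Hba-a2 (0.105), Usp2 (0.0613), Hlf (0.101), C1qtnf7 (0.0571), C1qtnf1 (0.0555), Adipor2 (0.0776) and Apoe (0.0824). Without CIH 3 it was so for Mb (0.093), H2-DMb1 (0.0639), Ciita (0.123), Cdkn1a (0.0547), Hspd1 (0.0886), Hba-a2 (0.0929), Usp2 (0.0974), Hlf (0.16), C1qtnf1 (0.0617) and Adipor2 (0.0645). The other single libraries ended the calls of Mb (CIH 2, MI+CIH 1), H2-DMb1 and Ciita (CIH 1, MI+CIH 1), Hba-a2 (CIH 2, MI+CIH 1), Kdr (CIH 2), Usp2 and Hlf (CIH 1, MI+CIH 1), Adipor2 (MI+CIH 2) and Apoe (MI+CIH 1). For Pcx, Hk2, Hmox1 and Cryab, the highest adjusted p without a library was 0.103, 0.0607, 0.101 and 0.0962, and the Cryab call was lost without CIH 2, CIH 3 or MI+CIH 3.

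Many list counts were lower when the MI and sham libraries were left out of the fit. The spread was then estimated from the 6 libraries compared alone. That fit called 1475 of 15503 genes, 1130 rising and 345 falling, beside which the counts of this paragraph stand. Of the falling lists, 1 of 32 sarcomere, 3 of 21 calcium, 7 of 27 channel and 12 of 46 oxidative phosphorylation genes fell. So did 11 of 31 fatty acid oxidation, 7 of 26 citric acid cycle, 3 of 30 glucose-handling and 4 of 16 regulator genes. Of the rising lists, 14 of 19 collagens, 25 of 31 other scar matrix, 9 of 21 collagen processing and 10 of 24 protease genes rose. So did 6 of 24 TGF-beta, 5 of 18 fibroblast, 2 of 13 insulin-like growth factor and 8 of 16 complement genes. The counts were 11 of 26 for macrophage, 7 of 14 for lymphocyte and 6 of 26 for chemokine genes. They were 4 of 19 for cell cycle and 2 of 21 for glucocorticoid-induced genes. The adipocyte count was 10 of 21, the epicardial count 9 of 13 and the airway count 7 of 11.

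The infarction contrast without hypoxia is the difference between other libraries, MI and sham, which enter the tests above only through the shared filter and estimate of spread. In MI against sham hearts 304 of 15503 genes passed (1.96%), 212 rising (1.37%) and 92 falling (0.593%). Of those 212 risers, 163 (76.9%) also rose in MI+CIH against CIH hearts, which is 5.3% of the risers there, and 2 fell. Of the 92 fallers, 42 (45.7%) also fell, which is 3.3% of the fallers there, and 3 rose. Of all tested genes, 19.9% rose and 8.26% fell in MI+CIH against CIH hearts. These counts and shares come from the spread shared by all groups. Replicates correlated at 0.932 to 0.941 in MI+CIH and 0.945 to 0.961 in CIH, against 0.963 to 0.97 in MI and 0.961 to 0.965 in sham. With only the groups compared in each fit, 1475 genes passed for MI+CIH against CIH and 1042 for MI against sham. Across genes, which are not independent replicates, the log2 differences of both contrasts had a Pearson r of 0.33 and a Spearman rho of 0.32. Collagens rose in both (13 of 19 in MI against sham, median 1.61), as did other scar matrix genes (15 of 31, median 1.34). For Col1a1 the MI libraries stood at 69.4, 114 and 147 FPKM, against 20.2, 17.4 and 32.3 FPKM in sham libraries (2.20, adjusted p = 0.0455), and the difference between the contrasts was 0.69 (adjusted p = 0.596). Clock genes also differed between MI and sham: 7 of 14 repressors and outputs fell (median -1.44) and 3 of 7 activators rose. Red cell genes fell there for 6 of 11. The hour of sampling is not given, and its part in either contrast was not tested.

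**Figure D5:**
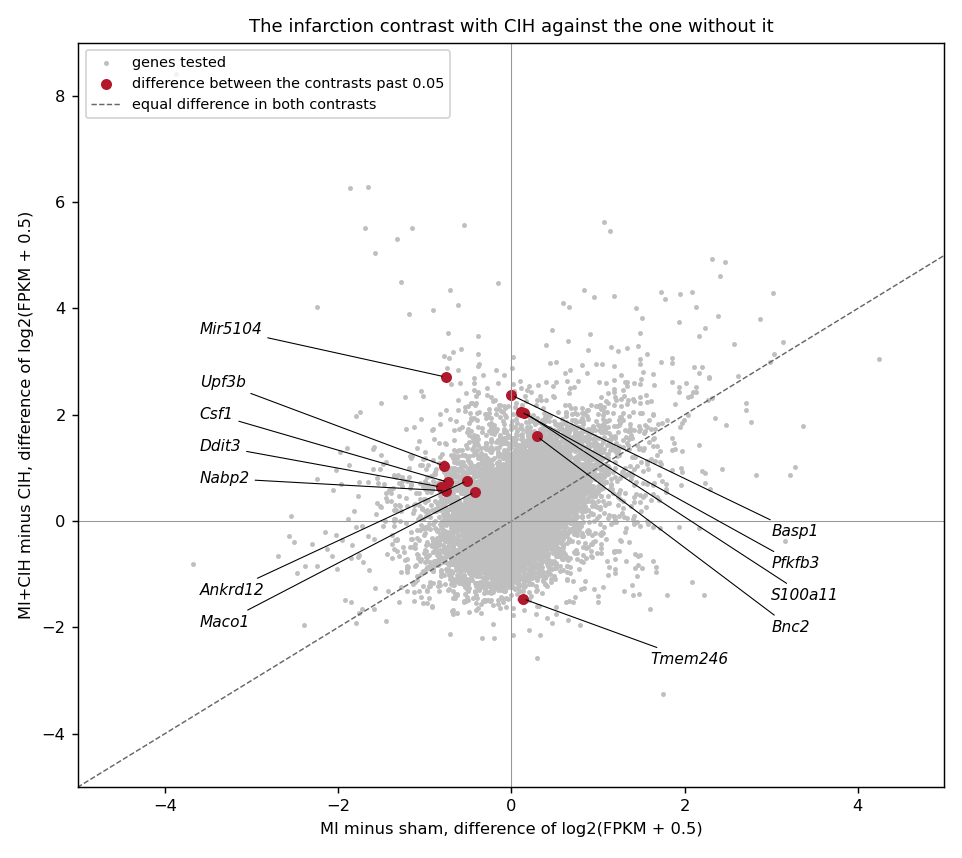
Difference of log2(FPKM + 0.5) for MI+CIH minus CIH (vertical) against MI minus sham (horizontal), 1 point a gene, with 12 genes named whose contrasts differ and 1 gene outside the axes. Of the 12, 11 lie above the line of equal differences and Tmem246 lies below it.

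A test of the difference between the contrasts, the MI+CIH minus CIH difference less the MI minus sham difference, passed for 12 genes (0.0774%), 11 with a positive value (0.071%) and 1 with a negative value (0.00645%). No gene of the energy, calcium, sarcomere or matrix lists was among them except Pfkfb3, so these lists are not shown to differ between the contrasts one gene at a time. Cox8b came nearest among the respiratory genes: its MI minus sham difference was 0.65, and the difference between the contrasts was -2.50 (adjusted p = 0.0537). Pfkfb3 (1.96, adjusted p = 0.0495) rose in MI+CIH against CIH hearts and differed by 0.11 in MI against sham hearts. Csf1, the macrophage growth factor, stood at 21.4, 17.8 and 21.4 FPKM in MI+CIH libraries, against 13.5, 12.7 and 10.1 FPKM in CIH libraries. In MI libraries it stood at 15.4, 13.8 and 11.8 FPKM, against 19.7, 23.8 and 25.6 FPKM in sham libraries. It therefore rose in one contrast and fell in the other, as did Ddit3 and Nabp2, with a difference between the contrasts of 1.46 for Csf1 (adjusted p = 0.0486) and 1.45 for Ddit3 (adjusted p = 0.0396). The count of 12 was 0 in 8 of the 12 fits that leave out 1 library each. Among the 12 is a microRNA gene, Mir5104, listed at 0 in all 3 CIH libraries and at 3.27, 1.88 and 3.42 FPKM in MI+CIH libraries. Its hairpin of 94 bases lies inside Zc3h12d on the same strand, so reads of both cannot be told apart and the value is uncertain. The mature sequence (chr10:7836441-7836464, plus strand, GRCm38.p6, from RefSeq) is given 5′ to 3′ with the seed, bases 2 to 8, in capitals.
mmu-miR-5104: cUGUGCUAgugagguggcucagca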

How the data were processed

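Total RNA of frozen mouse hearts was sequenced in 12 libraries, 3 each of MI+CIH, CIH, MI and sham; the labels' protocol names a small RNA library kit, although the values cover messenger RNAs. The authors deposited FPKM values per gene; per the submitters' processing notes the tools were HISAT, featureCounts 1.5.0-p3 and DESeq 1.8.3, with build mm10. The role of each tool is not given in the sources used here. FPKM depends on the mix of RNAs in a library, so 1 abundant class shifts all other values.

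A gene was tested where 3 or more of the 12 libraries reached 0.5 FPKM (15503 of 26781). Values were taken as log2(FPKM + 0.5) and fitted in limma 3.58.1 under R 4.3.3 (trend and robust options), all 4 groups sharing the estimate of spread, with Benjamini-Hochberg adjustment. Fold changes on this scale understate changes of low genes. Passing means an adjusted p under 0.05, and every "adjusted p" and SE in the text comes from this fit unless another is named. With 3 libraries a side, an exact permutation test of 1 gene cannot go below 0.1, so none was used. Multiplying FPKM by exon length gave whole reads within 0.1 read in all libraries for 22795 of 25404 genes (89.7%); these reads gave library totals and a voom fit as an alternative. Symbols and exon lengths came from GENCODE M21 (GRCm38), some symbols from a table of gene names, and sequences from RefSeq (GRCm38.p6). The fit was tested on simulated data.

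No 2 libraries held identical values. Replicate numbers come from the sample titles; deviations of same-numbered libraries did not correlate in every pair, so no block was used.

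The 47 gene lists and the members were chosen with earlier results of these data known. Genes were named by rule: the 15 rising and 15 falling with the smallest p among those changed 2-fold or more, averaging at least 1 FPKM and not overlapping between groups; the 5 most abundant each way; up to 5 called members a list; C1qtnf9, Adipoq and their receptors; and the 10 smallest p of the difference between contrasts. Other genes named were chosen after their values were seen, as were the motifs AAGGTCA and CCAAT. Some genes are not reported here.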

Additional observations from a re-analysis of the deposited data

Results flagged for a closer look

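For 12 genes, the MI+CIH minus CIH difference and the MI minus sham difference were not equal by a test of the difference itself (limma, adjusted over all 15503 genes). The value given first for each is the log2 difference between the contrasts, followed by its parts. Ddit3, a stress-induced transcription factor, stood at 1.45 (0.64 in MI+CIH minus CIH, -0.81 in MI minus sham, adjusted p = 0.0396), and Basp1, a membrane-bound signalling protein, at 2.37 (2.37 in MI+CIH minus CIH, adjusted p = 0.0396). Csf1, the macrophage growth factor, stood at 1.46 (0.73 and -0.73), the DNA-repair protein Nabp2 at 1.33 (0.57 and -0.76), the RNA-decay factor Upf3b at 1.83 (1.04 and -0.78), Ankrd12 at 1.27 (0.76 and -0.51) and Maco1 at 0.97 (0.55 and -0.42), each with an adjusted p of 0.0486. Bnc2, a zinc-finger protein of fibroblasts, stood at 1.31 (1.60 and 0.29), the calcium-binding S100a11 at 1.89 (2.04 and 0.15) and Tmem246 at -1.59 (-1.46 and 0.13), also at 0.0486. Pfkfb3 stood at 1.96 (2.06 and 0.11, adjusted p = 0.0495). Mir5104 stood at 3.47 (2.71 and -0.76, adjusted p = 0.0486), a fitted value that depends on the pseudocount because the gene is listed at 0 in the CIH libraries.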

How the results depend on the processing

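The count for MI+CIH against CIH, 4368, was 0 when a log2 change above 1 was tested for (501 at an unadjusted p under 0.05), 1475 with only the groups compared in the fit, 2886 without CIH 1 and MI+CIH 3 together, and 2826 to 4590 without any 1 library (lowest without MI+CIH 3). Other filters, pseudocounts, scaling and voom gave 3853 to 4344. The MI against sham count, 304, was 2 under the minimum change, 143 with no filter, 1042 with only those groups, and 22 to 205 without any 1 library (139, 30 and 22 without MI 1, 2 and 3, and 30, 27 and 205 without sham 1, 2 and 3). The count of 12 for the difference between contrasts was 155 under median-of-ratios scaling (61 positive, 94 negative), 0 under the minimum change (189 at an unadjusted p under 0.05), 1 with no filter, 2 with a pseudocount of 0.1, 172 with voom and 76 without CIH 1 and MI+CIH 3 together. It was 0 to 999 without any 1 library (110 without CIH 1, 94 without MI+CIH 1, 999 without MI+CIH 2, 15 without sham 3); 3294 genes had an unadjusted p under 0.05. Whether libraries pair by number is not given in the labels. Deviations of same-numbered MI+CIH and CIH libraries correlated at 0.13, 0.11 and -0.01. The same-numbered CIH library was the best partner for MI+CIH 1 and 2, but not for MI+CIH 3. With the replicate block the counts were 3954 for MI+CIH against CIH, 177 for MI against sham and 0 for the difference (3129 unadjusted). C1qtnf9 (-0.52) passed under median-of-ratios scaling (-0.73) and without CIH 1 and MI+CIH 3 together (-0.59), and ranged from -0.75 to -0.36 without any 1 library, passing without CIH 1 (-0.75) or MI+CIH 2 (-0.70). Of 234 named genes that passed, 153 did so under every alternative except the minimum change, and none changed direction. The cause of these shifts was not tested.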
